A study of Mus musculus with 2 samples.

Results

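The cone phototransduction cascade without its opsins is described here in the retina of WT mice and of mice with the mtDNA mutation 13997G>A in ND6, called ND6. The 8 genes, chosen by name from the 32285 genes of the deposited tables, are Arr3, Gnat2, Gnb3, Gngt2, Pde6c, Pde6h, Cnga3 and Cngb3. All 8 were detected in both libraries. Droplet-based 3′ RNA libraries had been made from whole retina dissociated with enzymes, 1 library (replicate 1) per genotype, from male C57BL/6J mice aged 7 months. ND6 encodes a subunit of respiratory complex I, and the mouse models Leber's hereditary optic neuropathy, so the comparison asks how transcripts of the retina differ when this subunit is altered throughout the body, the mutation being homoplasmic. The mutation had been brought in by fusion with female embryonic stem cells and the line kept by mating mutant females to WT males, whereas WT mice were bred brother to sister. With 1 library per genotype the spread between mice is not known, a library and its genotype cannot be told apart, and no test was made.

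Cones are the photoreceptors of daylight and colour vision. In their outer segments, light-activated opsin switches on the G protein cone transducin, whose α subunit (Gnat2) leaves its β and γ subunits (Gnb3, Gngt2) and activates the cone phosphodiesterase (Pde6c, with the inhibitory subunit Pde6h). The enzyme hydrolyses cGMP, the cGMP-gated channel (Cnga3, Cngb3) closes and the cone hyperpolarizes, while cone arrestin (Arr3) ends the signal by binding phosphorylated opsin. Rods use a parallel set made by other genes, and mutations in several of the cone genes cause achromatopsia.

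The promoters of Arr3 and Pde6h are shown because these were the members whose levels differed most, in WT, between cones rich in M-opsin and cones rich in S-opsin. Both are the 250 bases before a RefSeq start, on GRCm38.p6, plus strand. Capitals mark the motif TAATCC or the motif TAATCT, searched on both strands, to which the photoreceptor homeodomain factor Crx is known to bind. The Arr3 window is chrX:100605247-100605496 and the Pde6h window is chr6:136954273-136954522. The Arr3 window ends where the GENCODE model of the gene begins, whereas the Pde6h window lies inside the GENCODE span of its gene.
Arr3 promoter: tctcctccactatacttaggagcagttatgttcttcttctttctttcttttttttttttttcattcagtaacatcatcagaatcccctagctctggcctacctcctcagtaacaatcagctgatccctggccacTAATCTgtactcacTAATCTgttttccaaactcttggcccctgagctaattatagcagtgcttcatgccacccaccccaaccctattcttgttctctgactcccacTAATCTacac
Pde6h promoter: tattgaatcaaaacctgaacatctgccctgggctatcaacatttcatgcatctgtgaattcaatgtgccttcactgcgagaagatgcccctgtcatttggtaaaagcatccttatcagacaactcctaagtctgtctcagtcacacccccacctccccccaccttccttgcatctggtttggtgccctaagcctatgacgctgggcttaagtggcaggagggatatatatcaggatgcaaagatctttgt
The Arr3 window held 3 matches, which began 116, 102 and 10 bases before the start, and the Pde6h window held 0. At least 1 match was found in 12.8% of the 32851 windows of this length in the table and at least 2 in 1.4%. Of the other members the table held Gnat2, with 1 match beginning 19 bases before its RefSeq start, inside the GENCODE span of that gene. The table also held Cnga3, with 2 starts, both inside the GENCODE span of the gene, and no match at either. Gnb3, Gngt2, Pde6c and Cngb3 were not looked up further.

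A barcode was kept when it held more than 400 UMIs (unique molecular identifiers, each counting 1 captured RNA molecule) from more than 200 genes and when mtDNA transcripts made up no more than 20% of them, which left 12529 cells in WT and 18395 in ND6. Barcodes with at least 0.2% and at least 2 UMIs from the opsin genes Opn1sw and Opn1mw were taken as cones. There were 506 cones in WT, 4.04% of cells (3.70 to 4.40, exact 95% interval for counting error only), and 973 in ND6, 5.29% (4.97 to 5.62). The median cone held 6916 UMIs in WT and 5333 in ND6, against 1791 and 1387 in rods. Of the cone marker genes that the cut did not use, Rxrg, Ccdc136 and Kcne2 were at least 16.4-fold higher in cones than in rods in either library, while Thrb was 3.01-fold higher in WT and 2.61-fold in ND6. The libraries shared 59 cell barcodes, and 0 of the barcodes of cones were shared.

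Rod RNA was abundant in the cone barcodes. Gnat1, the α subunit of rod transducin, made up 5611 UMIs per 1000000 UMIs of the class (CPM) in WT cones and 7239 CPM in ND6 cones, against 8676 and 9314 CPM in rods. Free RNA, measured in barcodes of 10 to 100 UMIs, held 6093 CPM of Gnat1 in WT and 8662 CPM in ND6. Within cones the level of Gnat1 was lower the higher the share of opsin UMIs, from 7624 CPM at 0.2 to 0.5% opsin to 932 CPM over 2% opsin in WT, and from 9072 to 1267 CPM in ND6. The cone cascade went the other way, its 8 genes together making up 7888 CPM in the lowest of these bins and 31467 CPM in the highest in WT, and 6867 and 32798 CPM in ND6. The lowest bin held 172 cones in WT and 372 in ND6, and the highest held 53 and 116. Just below the cut, at 0.1 to 0.2% opsin, the 8 genes made up 3256 CPM in WT and 3436 CPM in ND6, and just above it, at 0.2 to 0.3%, 6282 and 5498 CPM. A lower CPM of a cone gene in ND6 cones therefore stood beside a higher CPM of Gnat1. Not every rod transcript was higher, since Gngt1 was at 9829 CPM in WT and 7286 CPM in ND6 cones. Because of the difference in Gnat1, the comparison of ND6 with WT over all cones is also given within bins of opsin share and relative to the other members.

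Arr3, cone arrestin (X chromosome, 100605497 to 100618493, plus strand, GRCm38), reached 9502 UMIs or 1872 CPM in WT cones and 11745 UMIs or 1502 CPM in ND6 cones. Its log2 ratio of ND6 over WT was -0.32 (-0.36 to -0.28, exact interval for counting error). At least 1 Arr3 UMI was seen in 92.1% of WT and 88.3% of ND6 cones, and in 6.40% of WT and 7.61% of ND6 microglia, a class that should lack it. Between 1 and 2% opsin the ratio was 0.09 (0.02 to 0.17) and over 2% it was -0.06 (-0.18 to 0.06), so that its level was lower in ND6 beyond counting error in the 2 bins below 1% opsin, by -0.33 and -0.40, and in neither bin above.

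Cone transducin was unevenly represented by its 3 subunits. Gnat2, the α subunit (chromosome 3, 108092789 to 108101432, plus strand), reached 1408 CPM in WT and 1356 CPM in ND6 cones, a log2 ratio of -0.05 (-0.10 to -0.01). Gnb3, the β subunit (chromosome 6, 124834240 to 124840275, minus strand), reached 1584 and 1604 CPM, a log2 ratio of 0.02 (-0.02 to 0.06), and its counting interval includes no difference. Gngt2, the γ subunit (chromosome 11, 95837216 to 95845734, plus strand), was the most abundant of the 3, with 3138 CPM in WT and 2302 CPM in ND6, a log2 ratio of -0.45 (-0.48 to -0.42). Counted per Gnb3 UMI, 1.98 Gngt2 UMIs (1.93 to 2.03) were found in WT cones and 1.44 (1.40 to 1.47) in ND6 cones. The same count was 1.96 (1.82 to 2.11) and 1.44 (1.35 to 1.53) in the cones over 2% opsin, where rod RNA was lowest. All 3 subunits had a UMI in 87.5% of WT cones and in 82.7% of ND6 cones.

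The catalytic subunit of cone phosphodiesterase, Pde6c (chromosome 19, 38132781 to 38183958, plus strand), was the member with the highest ratio of ND6 over WT in cones. It reached 2555 UMIs or 503 CPM in WT and 4691 UMIs or 600.1 CPM in ND6, a log2 ratio of 0.25 (0.18 to 0.32). The inhibitory subunit Pde6h (chromosome 6, 136923832 to 136968865, plus strand) was the most abundant of the 8 genes, with 5217 CPM in WT and 4578 CPM in ND6 and a log2 ratio of -0.19 (-0.21 to -0.17). The subunits thus differed in direction, and 10.4 Pde6h UMIs (9.95 to 10.8) were counted per Pde6c UMI in WT cones against 7.63 (7.40 to 7.87) in ND6 cones. Over 2% opsin these counts were 12.0 (10.6 to 13.6) and 9.42 (8.61 to 10.3).

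The subunits of the cone channel were the scarcest members. Cnga3, the α subunit (chromosome 1, 37214434 to 37263384, plus strand), had 267 UMIs or 52.6 CPM in WT cones and 318 UMIs or 40.7 CPM in ND6 cones, a log2 ratio of -0.37 (-0.61 to -0.13). Cngb3, the modulatory β subunit (chromosome 4, 19280850 to 19510623, plus strand, where it overlaps Gm11877 on the same strand, so reads of the pair may be mixed), had 259 CPM in WT and 190 CPM in ND6, a log2 ratio of -0.45 (-0.55 to -0.34). In both libraries Cngb3 was counted more often than Cnga3, with 4.93 UMIs (4.31 to 5.64) per Cnga3 UMI in WT and 4.67 (4.14 to 5.29) in ND6. A UMI of both subunits was seen in 32.4% of WT cones (28.4 to 36.7) and in 20.6% of ND6 cones (18.1 to 23.2). After every cell had been thinned to 400 UMIs, Cnga3 was detected in 2.96% of WT and 2.67% of ND6 cones and Cngb3 in 12.5% and 9.66%.

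**Figure D1:**
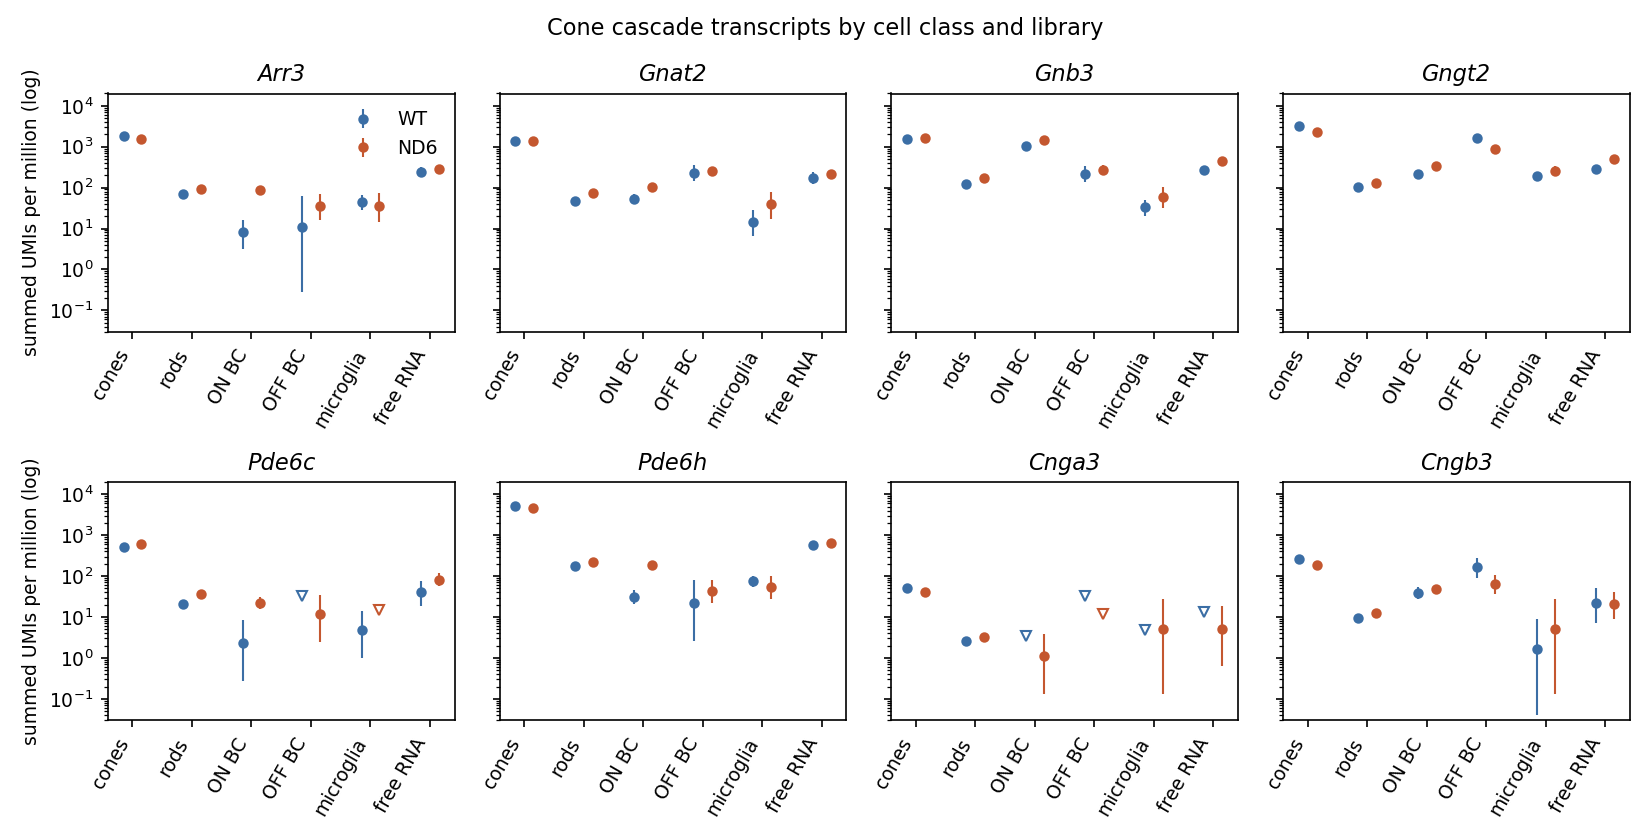
Summed CPM (log axis) of the 8 genes in cones, rods, ON and OFF bipolar cells (BC), microglia and free RNA, WT in blue and ND6 in orange, with exact 95% Poisson intervals; open triangles mark the level of 3 UMIs where none was counted. Cones were the highest of the classes shown for each gene in both libraries, from 5217 CPM for Pde6h to 40.7 CPM for Cnga3, and Gnb3 in ON and Gngt2 and Cngb3 in OFF bipolar cells were within 3-fold of them. The cone values are sums over all cone barcodes, which also held rod RNA.

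Set in order of CPM, WT cones ran Pde6h, Gngt2, Arr3, Gnb3, Gnat2, Pde6c, Cngb3 and Cnga3, and ND6 cones differed only in that Gnb3 stood above Arr3. A UMI is counted at the 3′ end of a molecule, so these levels were not divided by transcript length. The 8 genes together made up 1.40% (1.39 to 1.41) of all UMIs in WT cones and 1.22% (1.21 to 1.22) in ND6 cones. The spread among cones was wide, with an interquartile range of the per-cell sum from 0.89% to 2.65% in WT and from 0.67% to 2.65% in ND6. A cone carried UMIs of 7 of the 8 genes at the median in either library. No UMI of any of them was found in 6 WT cones (1.19%) and 41 ND6 cones (4.21%). All 6 of the WT and 38 of the ND6 cones among these were in the bin of lowest opsin share, and none had over 1% opsin.

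All 8 genes were at least 4-fold higher in cones than in rods in both libraries, a size reached by 4.34% of the genes with at least 20 UMIs in WT and by 2.95% in ND6. Rods were barcodes with at least 1% and 5 UMIs of rod markers such as Nrl, Nr2e3 and Reep6. They passed neither the cone cut nor the limit for another class, 0.3% and 3 UMIs of its markers. Fewer marker UMIs of other classes were allowed, and 13.1% of WT and 19.2% of ND6 rods held an opsin UMI. In WT, Gngt2 had 3138 CPM in cones and 104 CPM in rods, a 30.1-fold difference, and Gnat2 had 1408 and 47.1 CPM, a 29.9-fold difference. Gnb3 differed least, 12.9-fold in WT and 9.41-fold in ND6. The median log2 ratio of cones over rods was 4.74 in WT and 4.02 in ND6, and each of the 8 was lower in ND6 than in WT, from 0.46 lower for Gnb3 to 0.81 lower for Cngb3. The rod counterparts Sag (rod arrestin), Gnat1, Gnb1, Gngt1, Pde6a, Pde6b, Pde6g, Cnga1 and Cngb1 lay between -0.88 and -0.24 in WT and between -0.63 and -0.20 in ND6. The levels of the rod counterparts in cones were thus at least 0.545 of those in rods.

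**Figure D2:**
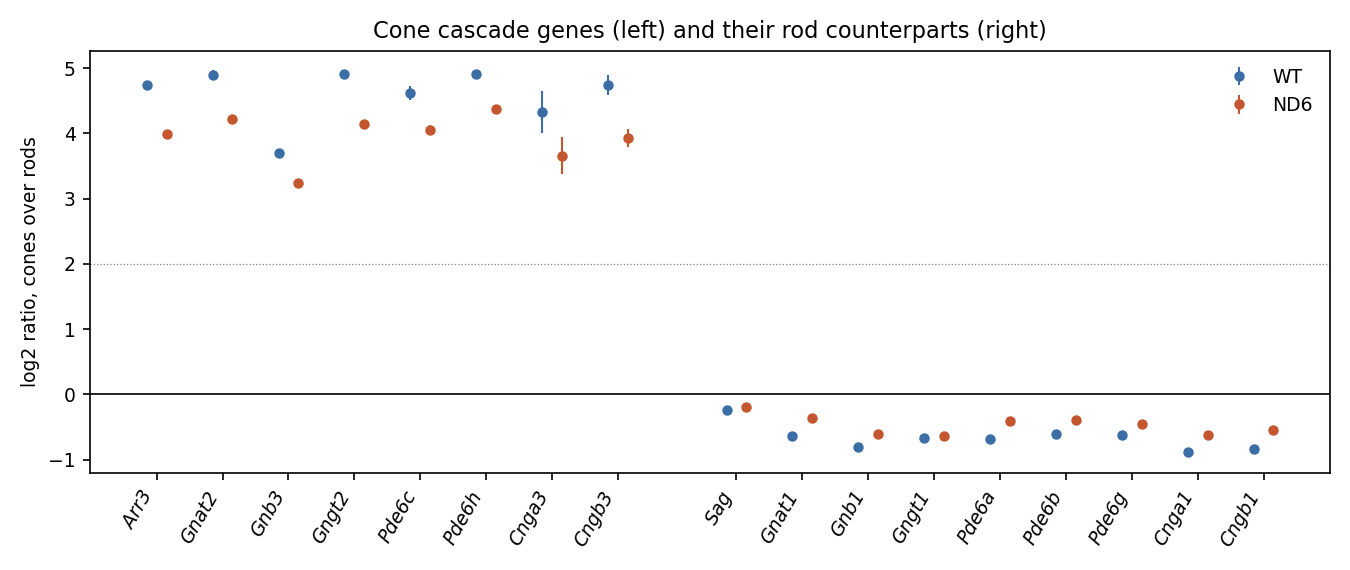
Log2 ratio of summed CPM in cones over rods for the 8 cone cascade genes (left) and the 9 rod counterparts (right), WT in blue and ND6 in orange, with exact conditional 95% intervals; the dotted line marks 4-fold. The members lie between 3.23 and 4.91 and the rod counterparts between -0.88 and -0.20.

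The distance between the cone genes and their rod counterparts depended on how much opsin a cone barcode held. At 0.2 to 0.5% opsin the 8 cone genes gave 14.5% of the UMIs of both sets in WT (14.3 to 14.7) and 12.6% in ND6 (12.5 to 12.7). Over 2% opsin they gave 61.0% (60.2 to 61.7) and 60.6% (59.9 to 61.2). In these cones Gnat2 was at 3173 CPM in WT and 3529 CPM in ND6, above the 932 and 1267 CPM of Gnat1. Sag, in contrast, remained at 7781 and 8995 CPM, above the 3489 and 3344 CPM of Arr3. Gngt1, at 6194 and 4268 CPM, and Pde6g, at 3783 and 4737 CPM, also fell less from the lowest bin than Gnat1 did. Gnb1, in turn, was down to 707 and 980 CPM.

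ND6 and WT cones differed by less than a log2 ratio of 0.5 in each of the 8 genes. Among the 11592 genes with at least 20 UMIs over both sums, 12.5% were higher in ND6 cones by this size and 7.56% lower. The median ratio of the 8 was -0.25, beside 0.01 over all genes, and 6 lay below 0 and 2 (Gnb3 and Pde6c) above. The rod counterparts in the same cones had a median of 0.21, and 8 of 9 lay above 0. The exception was Gngt1, the rod γ subunit, at -0.43 (-0.45 to -0.41), a value close to its -0.47 in rods and -0.45 in free RNA. Gnat1 in cones was higher in ND6 by 0.37 (0.35 to 0.39), and the part of rod RNA in the ratios of the cone genes was not tested.

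When cones were compared within bins of opsin share, the summed level of the 8 genes was lower in ND6 by -0.20 (-0.23 to -0.17) at 0.2 to 0.5% opsin and by -0.22 (-0.25 to -0.19) at 0.5 to 1%. It was higher in ND6 by 0.12 (0.09 to 0.15) at 1 to 2% and by 0.06 (0.02 to 0.10) over 2%. The direction of the summed level therefore differed between the bins of lower and of higher opsin share. The single members were divided, with 6 above 0 and 2 below at 1 to 2% opsin. Over 2% opsin 4 lay above 0 and 4 below, with a median of 0.01. Gnat1 was higher in ND6 in each of the 4 bins, by 0.24 to 0.44.

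Gngt2 and Cngb3 had a ratio below 0, and Pde6c and Gnb3 a ratio above 0, in each of the 4 bins. For Gngt2 the values were -0.37, -0.52, -0.14 and -0.15 from the lowest to the highest bin, and for Pde6c 0.35, 0.26, 0.44 and 0.43. Cngb3 was at -0.34, -0.50, -0.21 and -0.23, with an interval over 2% opsin (-0.56 to 0.10) that includes 0. Gnb3 was at 0.01 and 0.02 in the lower bins, with intervals that include 0, and at 0.34 and 0.29 (0.18 to 0.40) in the higher. Gnat2, Pde6h, Arr3 and Cnga3 lay on both sides of 0.

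Relative to the UMIs of the other 7 genes, a measure in which rod transcripts do not enter the total, Pde6c was higher in ND6 cones by 0.48 (0.41 to 0.55), Gnb3 by 0.25 (0.21 to 0.29) and Gnat2 by 0.17 (0.13 to 0.21). Gngt2 was lower by -0.30 (-0.34 to -0.27), Cngb3 by -0.25 (-0.35 to -0.14) and Arr3 by -0.13 (-0.17 to -0.09). In the composition of the cascade in cones, Gngt2 gave 22.4% of the UMIs of the 8 genes in WT and 18.9% in ND6, and Pde6c gave 3.59% and 4.93%. Rods had shares in the same directions, 18.9% and 17.6% for Gngt2 and 3.73% and 4.88% for Pde6c. In free RNA Gngt2 went the other way, at 18.0% and 22.8%, and Pde6c was at 2.49% and 3.73%. Over 2% opsin the relative values of Pde6c (0.39, 0.18 to 0.60), Gnb3 (0.27, 0.16 to 0.38) and Gngt2 (-0.27, -0.35 to -0.18) had the same signs and intervals that did not include 0. These intervals cover counting error only, since each genotype was 1 library, and the values over 2% opsin rest on 53 cones in WT and 116 in ND6.

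**Figure D3:**
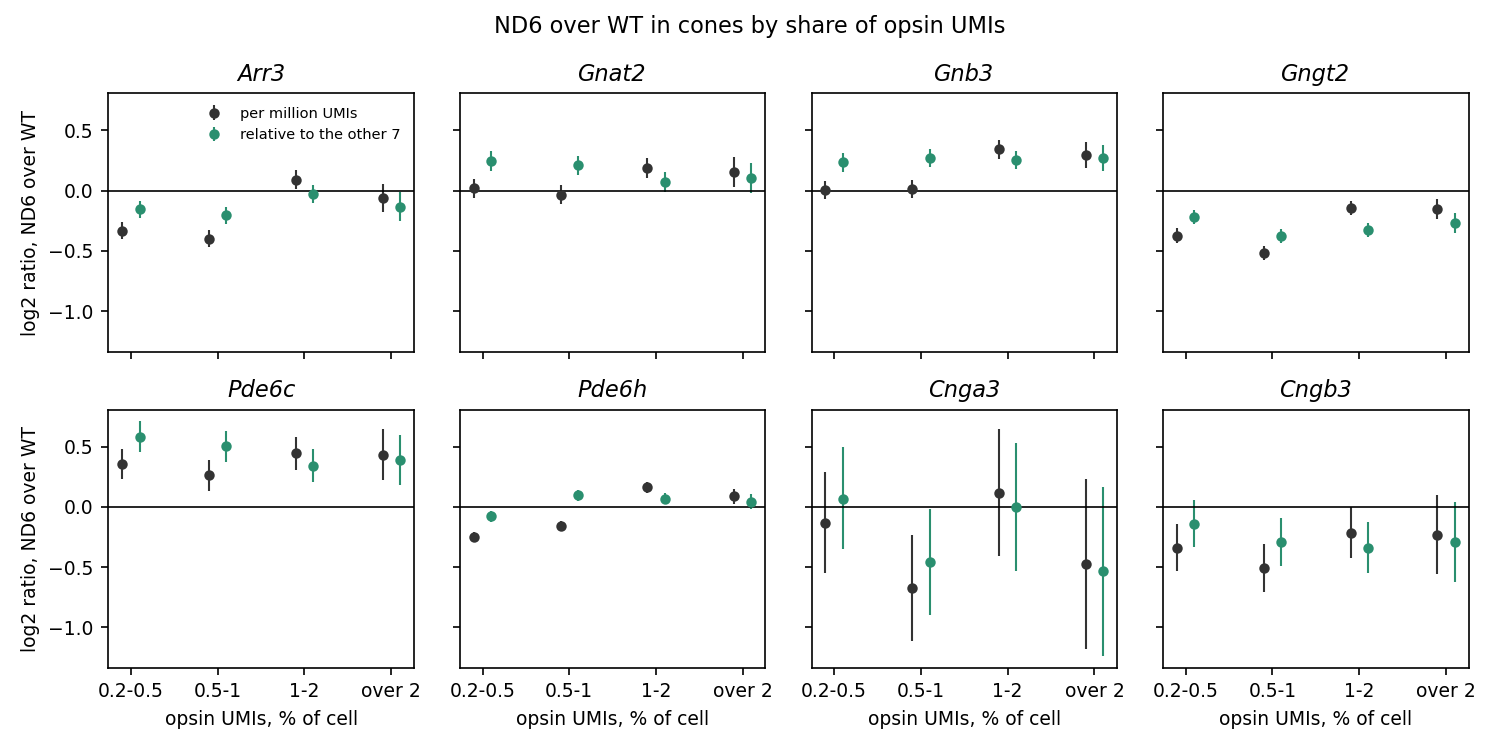
Log2 ratio of ND6 over WT in cones for each of the 8 genes, by the share of opsin UMIs per cell, as CPM (black) and relative to the UMIs of the other 7 genes (green), with exact 95% intervals. Pde6c lies above 0 and Gngt2 below 0 in all 4 bins on either scale, whereas the CPM ratios of Arr3 and Pde6h lie on both sides.

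Most mouse cones make both opsins, S-opsin (Opn1sw) and M-opsin (Opn1mw), in proportions that vary over the retina. Cones with at least 50% of their opsin UMIs from Opn1mw numbered 135 in WT and 313 in ND6, and those with under 10% numbered 187 and 309. Arr3 was at 3935 CPM in the M-rich and 1275 CPM in the S-rich cones of WT, a log2 ratio of 1.63 (1.55 to 1.70), and at 2609 and 922 CPM in ND6, a log2 ratio of 1.501 (1.43 to 1.57). It was the only member that differed by a log2 ratio of at least 1, a size reached in this direction by 2.61% of genes in WT and 2.23% in ND6. Pde6h came next in WT, at 0.94, and was at 0.80 in ND6, where Cngb3 (0.93) and Cnga3 (0.89) lay above it. Gnb3 came last in both, at 0.42 and 0.41. All 8 genes were higher in the M-rich cones in both libraries, and Gnat1 was lower in them, by -0.86 in WT and -0.63 in ND6, which was not separated from the differences in the members.

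Between genotypes, Arr3 was lower in ND6 in S-rich cones (-0.47, -0.55 to -0.39), in cones of 10 to 50% Opn1mw (-0.16, -0.22 to -0.09) and in M-rich cones (-0.59, -0.65 to -0.53). Gngt2 was lower in these 3 groups by -0.65, -0.20 and -0.66, and Cngb3 by -0.73, -0.24 and -0.57. Pde6c was at 0.09, 0.38 and 0.14, with an interval from -0.03 to 0.22 in S-rich cones. These are CPM ratios, and rod RNA differed beside them. Gnat1 was at 5697 CPM in WT and 8389 CPM in ND6 in S-rich cones, at 6571 and 7314 CPM in cones of 10 to 50% Opn1mw and at 3128 and 5419 CPM in M-rich cones. Its part in the ratios was not tested.

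In rods all 8 genes lay above 0 for ND6 over WT, with log2 ratios from 0.30 for Cnga3 to 0.82 for Pde6c and a median of 0.40. Gnat2 (0.63, 0.56 to 0.71) and Pde6c (0.82, 0.70 to 0.93) passed 0.5, 2 of 8, beside 23.9% of all genes in rods, and 0 were lower by that size, beside 6.57%. The rod levels themselves were low. The most abundant member, Pde6h, had 174 CPM in WT and 220.4 CPM in ND6 rods, and the levels of the members were 0.26 to 0.63 of those in free RNA wherever free RNA held any. No expression by rods is read from them. A UMI of any of the 8 genes was found in 34.0% of WT and 45.7% of ND6 rods, or in 8.62% and 15.5% after thinning to 400 UMIs, and in 10.47% and 19.6% of thinned microglia. Gngt2 alone had a UMI in 6.98% and 10.9% of thinned microglia, so the microglial share is not read as a background for rods.

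The UMIs of the cone genes in rods were unevenly held, least so for Gnb3, which had a UMI in 18.6% of WT and 22.2% of ND6 rods. The 1% of rods with the most UMIs of a gene carried 77.5% of the Arr3 UMIs in WT and 61.5% in ND6, and 39.6% and 31.6% of the Gnb3 UMIs, while the 1% with the most Gnat1 carried 19.97% and 18.1% of Gnat1. In the rods without any opsin UMI, 9551 in WT and 12259 in ND6, the members were at 0.21 to 84.8 CPM in WT and at 0.75 to 123 CPM in ND6. All 8 were still higher in ND6 there, with log2 ratios from 0.54 to 1.82, beside 25% of all genes past 0.5 and higher. The highest ratio, that of Cnga3, rested on 6 UMIs in WT and 21 in ND6. Genes of the ON bipolar cascade, which rods do not use, were higher in ND6 rods as well, with 8 of 8 past 0.5, beside 23.9% of all genes, and a median of 1.71. Grm6 and Trpm1 among them are also bipolar markers, whose limit kept barcodes out of the rods. The cone cascade in free RNA was higher in ND6 in the 6 members that could be compared, with a median of 0.55, beside 0.22 over all genes. The part of free RNA and of cone RNA in rod barcodes was not tested.

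**Figure D4:**
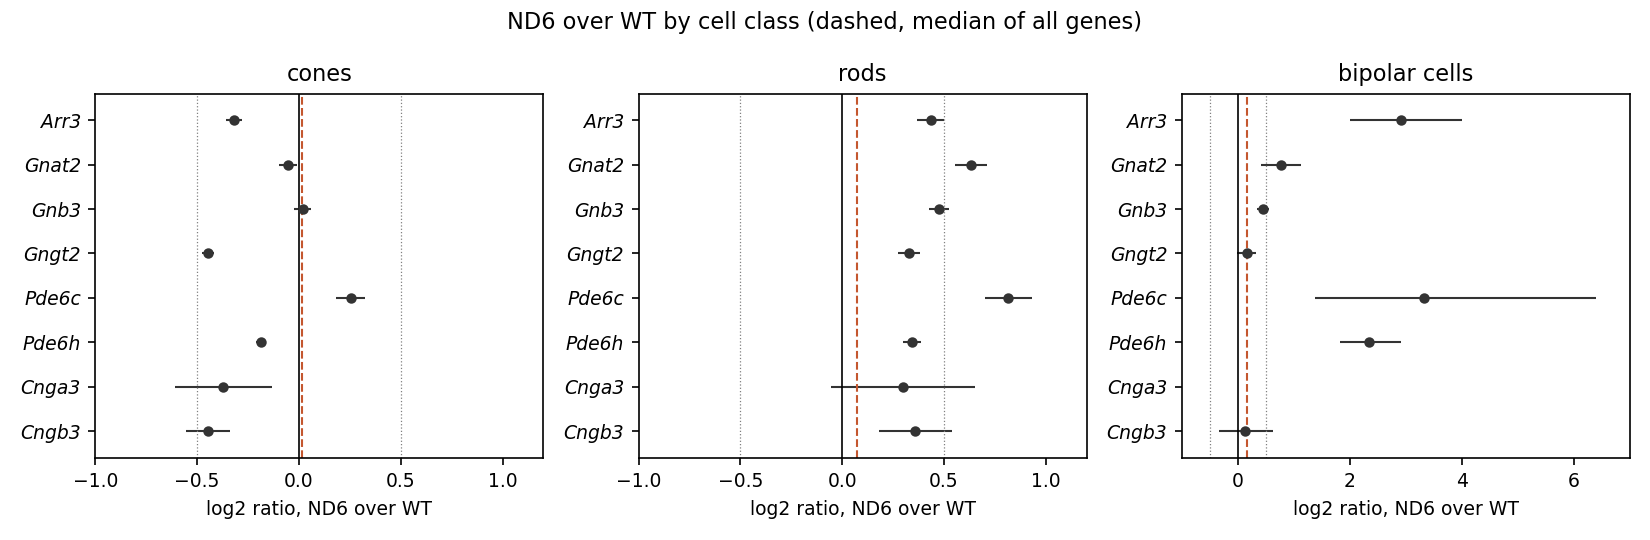
Log2 ratio of ND6 over WT (horizontal axis, wider for bipolar cells) in cones, rods and bipolar cells for the members with at least 20 UMIs over both sums, with exact conditional 95% intervals, dotted lines at -0.5 and 0.5 and a dashed line at the median of all genes. The members lie on both sides of 0 in cones, between 0.30 and 0.82 in rods, and from 0.13 to 3.32 in bipolar cells, where Arr3, Pde6c and Pde6h stand apart.

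Bipolar cells carry the photoreceptor signal to the inner retina, and Gnb3 also serves there, as the β subunit of the G protein by which ON bipolar cells respond to glutamate. Bipolar cells, defined by markers such as Cabp5, Grm6 and Trpm1, numbered 202 in WT and 496 in ND6, of which 161 and 347 were assigned to ON and 21 and 69 to OFF cells. Gnb3 was at 1041 CPM (908 UMIs) in ON cells and 220 CPM (20 UMIs) in OFF cells of WT, and at 1478 CPM (2725 UMIs) and 277 CPM (69 UMIs) in ND6. Its level over all cone barcodes, which also held rod RNA, was 1.52-fold that of ON cells in WT and 1.09-fold in ND6. In the cones over 2% opsin, Gnb3 was at 3748 CPM in WT and 4596 CPM in ND6. OFF over ON cells, the log2 ratio was -2.24 (-2.96 to -1.61) in WT and -2.42 (-2.78 to -2.07) in ND6, and 18.5% of all genes in WT and 10.4% in ND6 were lower in OFF cells by a log2 ratio of at least 1.

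Gnb3 in all bipolar cells was higher in ND6, with 914 CPM in WT and 1254 CPM in ND6 and a log2 ratio of 0.46 (0.35 to 0.56), beside a median over all genes of 0.16. In ON cells it was 0.50 (0.40 to 0.61), and in the ON cells without an opsin UMI 0.74 (0.62 to 0.87). Gnb3 was also higher in ND6 outside bipolar cells, at 270 CPM in WT and 460 CPM in ND6 free RNA. Its log2 ratio was 0.48 in rods and 0.02 in cones. The part of free RNA in the bipolar ratios of Gnb3 was not tested. The partners of Gnb3 in the ON cascade did not go with it. The ON barcodes also differed in content, with bipolar markers at 1.10% of UMIs in WT and 0.82% in ND6. Rod markers made up 0.55% and 0.75%. The bipolar markers include Grm6 and Trpm1, and the part of these shares in the ratios was not tested. Gnao1, the α subunit, was at 1125 CPM in WT and 849 CPM in ND6 ON cells (-0.41, -0.52 to -0.29), and Gng13, the γ subunit, at 3738 and 3037 CPM (-0.30, -0.36 to -0.24). The receptor gene Grm6 was at -0.21 (-0.39 to -0.03) and the channel gene Trpm1 at -0.57 (-0.65 to -0.49), although both also served to define the ON cells. Nyx and Gpr179 served so too, and the counts that follow therefore rest in part on genes that define the class. Of the 8 ON cascade genes (Grm6, Trpm1, Gnao1, Gng13, Rgs7, Rgs11, Nyx and Gpr179), 0 were higher and 3 lower by 0.5 in ON cells, beside 25% and 7.3% of all genes, and Gpr179 alone lay above 0, at 0.16 (-0.03 to 0.35).

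Gngt2, Gnat2 and Cngb3 were higher in OFF than in ON bipolar cells of WT. Gngt2 was at 1627 CPM (148 UMIs) in OFF and 216 CPM (188 UMIs) in ON cells, a log2 ratio of 2.92 (2.60 to 3.23), Gnat2 at 231 and 53.9 CPM (2.10, 1.28 to 2.87) and Cngb3 at 165 and 39.0 CPM (2.08, 1.10 to 2.996, on 15 UMIs in OFF cells). These were 3 of the 5 members with at least 20 UMIs, beside 8.04% of all genes. In ND6 the same held for Gngt2, at 899 and 342 CPM (1.40, 1.17 to 1.62), and for Gnat2, at 249 and 101.4 CPM (1.30, 0.86 to 1.72), but Cngb3, at 64.2 and 48.3 CPM, differed by only 0.41 (-0.46 to 1.19). This was 2 of 7 members, beside 5.14% of all genes.

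Free RNA held 287 CPM of Gngt2 in WT and 503 CPM in ND6, less than the OFF cells. Of Gnat2 it held 172 CPM (123 to 236) in WT and 218 CPM (174 to 270) in ND6. These intervals overlap those of Gnat2 in OFF cells, 143 to 353 CPM in WT and 191 to 319 CPM in ND6. Without the barcodes that held an opsin UMI, Gngt2 was at 1620 CPM in 20 WT and 961 CPM in 53 ND6 OFF cells. Arr3 there gave 1 UMI in each library, and Cnga3 gave 0 UMIs in either, which allows up to 3 counts. Between genotypes, Gngt2 in OFF cells was lower in ND6 by -0.86 (-1.16 to -0.55), and Cngb3 by -1.36 (-2.47 to -0.24), 2 of 4 members, beside 14.7% of all genes. Gngt1 was lower there by -0.88 (-1.06 to -0.70). In ON cells Gngt2 was instead higher by 0.66 (0.43 to 0.91), and 6 of 7 members were past 0.5, beside 25% of all genes. Gngt2 there, at 216 CPM in WT and 342 CPM in ND6, was below free RNA, which differed in the same direction. In ND6 ON cells Arr3, Gnat2, Pde6c and Pde6h were at 0.27 to 0.46 of free RNA, with Gnb3 and Cngb3 above it. The 5 ND6 ON barcodes with the most UMIs of a gene held 78.3% of Arr3 and 7.19% of Gnb3. The part of free RNA was not tested. The OFF values rest on 21 cells in WT.

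**Figure D5:**
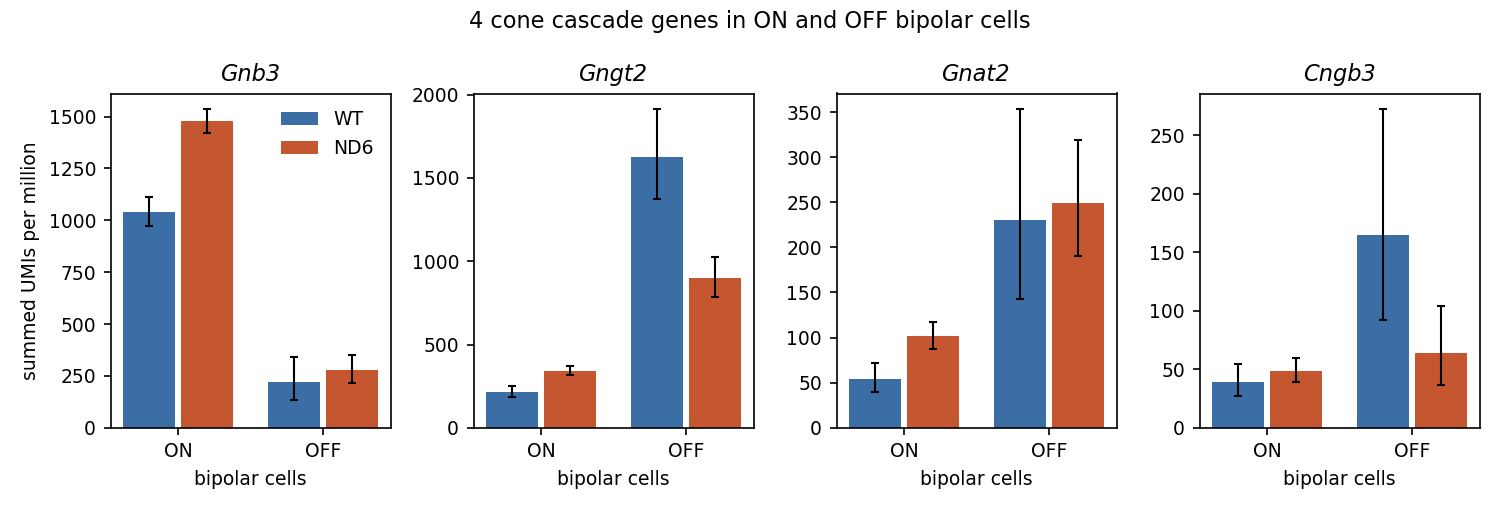
Summed CPM of Gnb3, Gngt2, Gnat2 and Cngb3 in ON and OFF bipolar cells, WT in blue and ND6 in orange, with exact 95% Poisson intervals and a vertical scale of its own for each gene. Gnb3 is higher in ON cells (1041 and 1478 CPM) and Gngt2 in OFF cells (1627 and 899 CPM), while the intervals of Cngb3 in ND6 overlap.

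Other members reached bipolar barcodes unevenly. In all bipolar cells, Arr3 had 10 UMIs in WT and 170 in ND6 (log2 ratio 2.91, 1.997 to 3.998), Pde6h 32 and 368 (2.35, 1.82 to 2.92) and Pde6c 2 and 45 (3.32, 1.38 to 6.40). With Gnat2 (0.77, 0.41 to 1.13) these were 4 of 7 members past 0.5, beside 24.5% of all genes. The 5 ND6 barcodes with the most Arr3 UMIs held 73.5% of them, 125 of 170, and the 5 with the most Opn1mw UMIs held 65.6% of Opn1mw. In the bipolar cells without an opsin UMI Arr3 had 8 UMIs in WT and 29 in ND6 (1.07, -0.10 to 2.41). There Pde6h had 19 and 62 UMIs (0.91, 0.15 to 1.74) and Pde6c 1 and 9, so that the ratios of Arr3 and Pde6h were smaller without the barcodes that held opsin.

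Gngt2 was also found in microglia, the immune cells of the retina, at 190 CPM (116 UMIs) in WT and 258 CPM (51 UMIs) in ND6. It had a UMI in 35.5% of WT and 34.8% of ND6 microglia, more than in rods (10.1% and 13.9%), and after thinning in 6.98% and 10.9%, against 2.17% and 3.56% of rods. Its CPM in microglia was nevertheless below that of free RNA. It gave 52.3% of the UMIs of the 8 genes in WT microglia, beside 18.0% in free RNA, and 56.0% beside 22.8% in ND6. Abi3, a gene of microglia, overlaps Gngt2 on the other strand, and the strand setting of the counting is not given in the sources used here.

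Other genes of cone phototransduction and its regulation, 17 in all, were described in the same way in cones. Of these, 1 was past 0.5 and higher in ND6, Pdc (phosducin, which binds transducin βγ) at 0.53 (0.51 to 0.55), beside 12.5% of all genes. None was lower by that size, beside 7.56%, and the median was -0.10. Pdc was likewise at 0.59 in rods. Slc24a2, the cone sodium, calcium and potassium exchanger, was the only gene of this list at least 4-fold higher in cones than in rods, with 144 against 6.23 CPM in WT and 134 against 12.1 CPM in ND6.

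The genes whose levels over 10 classes in both libraries (20 points) were most like the mean of the 8 members were Osgep (Pearson's r 0.94), Clca1 (0.91), Gm42697 (0.90), Thrb (0.90) and Otop3 (0.90), among 11807 genes. The points of a library share its depth and its free RNA. Osgep was at 317 CPM in WT and 269 CPM in ND6 cones, against 82.7 and 97.5 CPM in rods, and Otop3 at 32.7 and 19.6 CPM in cones. For Gnb3 alone the closest genes were Pygm, the muscle form of glycogen phosphorylase (0.85), Pip5k1a (0.84), Pgc (0.84), Fmn1 (0.84) and Slc24a4 (0.83). Pygm was at 196 CPM in WT cones, 104 CPM in ON bipolar cells and 14.9 CPM in rods.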

How the data were processed

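Reads had been aligned to mm10 with Cell Ranger 3.0.2, per the labels, and the authors deposited UMI counts of each gene in all barcodes, not normalized. The annotation release and the strand setting are not given in the sources used here. The libraries held 77958836 (WT) and 80358255 (ND6) UMIs, and the mtDNA limit removed 45.9% and 17.3% of the remaining barcodes. Counts were summed per class and library and divided by the sum of the class (CPM). Sums have exact Poisson, ratios exact conditional and shares exact Clopper-Pearson intervals at 95%, computed in Python 3.11.15 with scipy 1.17.1. A list was described by genes with at least 20 UMIs over both sums. Classes other than cones and rods needed at least 0.3% and 3 UMIs of markers of a single class. ON cells needed 2 ON marker UMIs and over 3 times their OFF marker UMIs, and OFF cells 2 OFF marker UMIs and more of these than of ON markers. These class limits were set after the data were seen. Barcodes with markers of several classes (9 and 44) and without a class (202 and 474) were left out. No doublet caller was run and doublets were kept. Members, lists and named genes (the members, rod counterparts, pathway lists, and the 5 genes closest in pattern on log2(CPM + 10) among genes with at least 200 UMIs) were chosen with earlier results of these data known. The ratio was tested on simulated data. Positions are from GENCODE vM21 and promoters from RefSeq on GRCm38.p6. Results that rest on some items, among them 1 gene of a pathway list and 1 alternative, are not reported here.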

Additional observations from a re-analysis of the deposited data

Results flagged for a closer look

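For 5 members the log2 ratio of ND6 over WT lay below 0 in cones and above 0 in rods, beyond counting error in both. Rods minus cones, the difference was 0.753 for Arr3, 0.687 for Gnat2, 0.775 for Gngt2, 0.532 for Pde6h and 0.807 for Cngb3. The difference was not tested, since each genotype was 1 library, and rod levels were below those of free RNA. For Arr3, Gnat2 and Pde6h the ratio in cones was above 0 in cones of 1 to 2% opsin. Over 2% opsin it was above 0 for Gnat2 (0.15, 0.03 to 0.28) and Pde6h (0.09, 0.02 to 0.15). Gngt2 and Cngb3 stayed below 0 in each bin.

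Barcodes over the limit on mtDNA-encoded UMIs were used in no comparison above. Of these, 117 of 3861 in ND6 (3.03%, 2.51 to 3.62) and 230 of 10647 in WT (2.16%, 1.89 to 2.45) passed the cone cut. The 8 genes made up 1.32% of their UMIs in ND6 and 1.60% in WT, with 2585 and 3988 CPM of Gngt2 and 492 and 425 CPM of Pde6c.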

How the results depend on the processing

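No paired analysis was possible because the genotypes share 1 replicate number, and with 1 library each none could be left out. Of the recomputed summary values 113 stayed within the counting interval or the allowed range and 35 moved. Of the other recomputed values, most of them for single genes, 195 stayed and 217 moved. A reversal was scored only for ratios that as reported reached the size used for calls, and none of these changed sign. The median ratio in cones did not reach that size, so its change of sign in some settings below could not be scored. The median ratio of ND6 over WT over the 8 genes in cones, -0.25 as reported, was -0.091 with a cone limit of 0.5% and 5 UMIs, 0.11 with 1% and 10 UMIs, -0.13 as a mean over cells, -0.012 with cells thinned to 400 UMIs, where 1 member (Pde6c) was past 0.5, and 0.013 over 2% opsin. In rods the median, 0.40 with 2 members past 0.5, was 0.55 with 5 past without the mtDNA limit, 0.96 with 8 as a mean over cells, 0.92 with 7 after thinning, 0.31 with median of ratios scaling and 1.14 with 8 in rods without opsin UMIs. The share of all genes past 0.5 and higher in rods was 26.9%, 28.8%, 31% and 25% in the settings with 5, 8, 7 and 8 members, and in thinned cones it was 31.1%, over the genes with at least 20 UMIs before the change. The bipolar median, 0.77, was 1.19 after thinning, and Gnb3 there, 0.46, was 0.57 with the marker limit doubled and 0.65 without opsin UMIs. The median of cones over rods, 4.74 in WT and 4.02 in ND6, was 5.18 and 4.58 at 0.5% and 5 UMIs, 5.37 and 4.95 at 1% and 10 UMIs, 6.62 and 5.47 as a mean over cells, 6.50 and 5.39 after thinning, and 4.90 in WT without the mtDNA limit. After thinning, the share of cells with a UMI of any member was 95.5% and 91.5% of cones in WT and ND6, 8.62% and 15.5% of rods, 44.1% and 51.0% of bipolar cells and 10.47% and 19.6% of microglia. In thinned microglia Gngt2 alone had a UMI in 6.98% and 10.9%. Over the 10 alternatives for cones, Gngt2, Cnga3 and Cngb3 stayed below 0 and Pde6c above 0, and in rods all 8 members stayed above 0. The settings over 2% opsin, without opsin UMIs and without shared barcodes were chosen after seeing the data. The cause of these shifts was not tested. Depth limited Cnga3, with 267 UMIs in WT and 318 in ND6 cones, and OFF cells in WT gave as few as 15 UMIs of Cngb3.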
